A study of Homo sapiens with 40 samples.

Results

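ALL-SIL and HPB-ALL are human T-cell acute lymphoblastic leukaemia (T-ALL) lines, compared here as a line that carries TLX1 against a line that carries TLX3. They contribute 8 of the 40 libraries of a study of the RNA-binding protein QKI, 4 of untreated ALL-SIL grown with 10% serum and 4 of untreated HPB-ALL grown with 20% serum, chosen by the line named in their labels. Each group is 1 line, so the TLX gene, the serum and everything else that differs between the lines cannot be told apart. DND-41, a further TLX3 line of the study (4 untreated libraries, 10% serum), is set beside them without a test. The labels do not state separate cultures for the 4 libraries of a line. The p-values thus speak of the spread among libraries of a line, taken from all 24 untreated libraries of 6 lines. That spread may be technical.

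TLX1 and TLX3 are closely related homeobox transcription factors that normal T cells do not use and that chromosome translocations switch on in T-ALL. Leukaemias with either factor are known to be held near the cortical stage of thymocyte development, at which cells carry CD1, CD4 and CD8, recombine their T-cell receptor (TCR) genes and depend on NOTCH signals. Both factors are described as binding ETS1 at the TCR alpha enhancer and holding that locus down. ALL-SIL is also known to carry a fusion of NUP214 and ABL1, multiplied on small circles of DNA from chromosome band 9q34, which yields an active tyrosine kinase that signals to STAT5.

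The libraries held 45.1 to 57.9 M (1e6) counted reads in ALL-SIL and 45.9 to 53.8 M in HPB-ALL. Levels are counts per 1e6 (CPM) scaled by TMM, and a count of 0 is set against a floor of 3 counts in a library, 0.0548 to 0.0653 CPM in ALL-SIL and 0.0535 to 0.0592 CPM in HPB-ALL, which covers counting error only; values with ± are means with the SD over 4 libraries. HPB-ALL library 4 stood apart from the other 3 of its line: its highest rank correlation with them was 0.984, while each of the other 7 libraries had a match in its own line of 0.991 to 0.995. TRIB3, a stress-response gene picked after its values were seen, had 88.4, 83.8, 65.3 and 693 CPM in the HPB-ALL libraries, the last being library 4. The T-lineage markers CD3E, CD3D, CD7, CD5 and LCK were present in all 8 libraries, while CD2 averaged 1.18 CPM in ALL-SIL and 111 CPM in HPB-ALL. Summed markers of other cells differed between the lines. The 15 myeloid markers summed to 0.653 to 1.39 CPM in ALL-SIL and to 15.1 to 34.7 CPM in HPB-ALL, nearly all of it CST3, with MPO, ELANE and LYZ at or under 0.112 CPM on average in both. The 14 B-cell markers summed to 50.8 to 96.6 CPM in ALL-SIL and to 470 to 587 CPM in HPB-ALL, led by CR2 and IGLL1, with MS4A1 at or near 0 and PAX5 at or under 0.341 CPM on average in both. IGKC, the immunoglobulin kappa constant region, picked after its values were seen, averaged 0.0109 CPM in ALL-SIL and 123 CPM in HPB-ALL. The 15 natural killer markers summed to 293 to 396 CPM in ALL-SIL and to 63.5 to 78.4 CPM in HPB-ALL, led by NKG7. That sum does not stand for the list. Of its 7 tested genes, 1 was called at least 2-fold higher in ALL-SIL and 3 lower (median log2 fold change -3.22). Erythroid and megakaryocyte markers stayed at or under 1.97 CPM and fibroblast, endothelial and epithelial markers at or under 17.6 CPM in every library. In RNA from whole cultures, fewer cells that make a transcript and less of it per cell cannot be told apart.

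TLX1 marked ALL-SIL and TLX3 marked HPB-ALL, and QKI did not separate the lines. These 3 genes chose the pair, so they are described without a test. TLX1 (ENSG00000107807.13, chr10:101130505-101137789, plus strand of GRCh38) had 402, 406, 412 and 346 CPM in ALL-SIL, against 1 count in all 4 HPB-ALL libraries together and 0 in DND-41. TLX3 (ENSG00000164438.6, chr5:171309284-171312134, plus strand) had 0 counts in ALL-SIL, against 289, 232, 231 and 146 CPM in HPB-ALL, and it averaged 122 ± 16.8 CPM in DND-41 (SD, n = 4). The lowest HPB-ALL value is that of library 4. QKI had 123, 119, 130.4 and 145 CPM in ALL-SIL, against 109.5, 156, 143 and 140.0 CPM in HPB-ALL. The QKI ranges overlap, with means of 129.6 ± 11.5 CPM in ALL-SIL and 137 ± 19.7 CPM in HPB-ALL (SD, n = 4 each). Per kilobase of exon, TLX1 stood at 114 CPM in ALL-SIL, and TLX3 at 150.4 CPM in HPB-ALL.

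**Figure D1:**
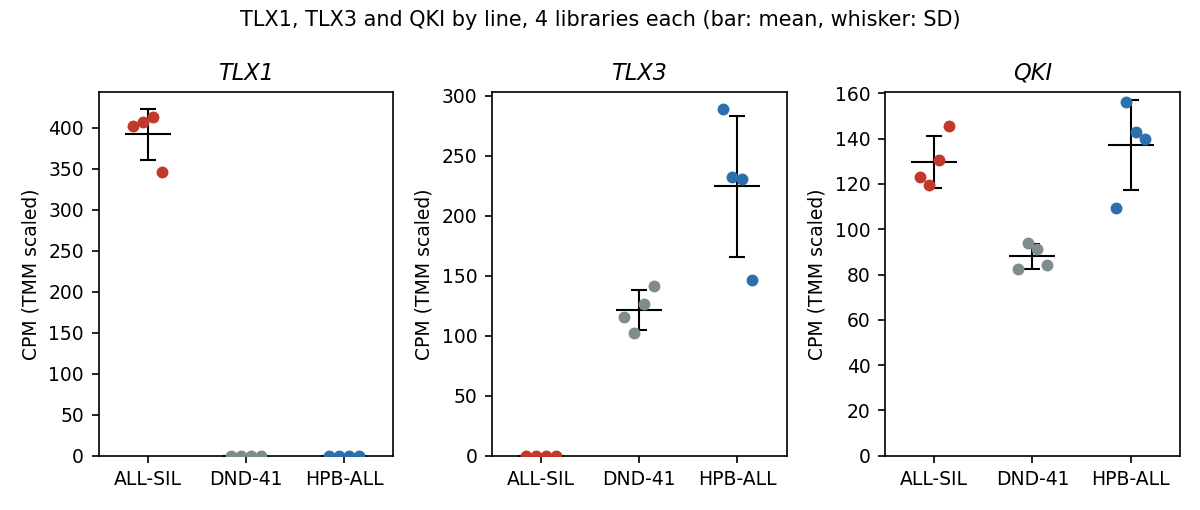
CPM (TMM scaled) of TLX1, TLX3 and QKI in each of 4 libraries of ALL-SIL, DND-41 and HPB-ALL; bars are means and whiskers SDs. TLX1 is at or near 0 outside ALL-SIL, TLX3 is at 0 in ALL-SIL, and the QKI values of ALL-SIL and HPB-ALL overlap.

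Most tested genes differed between the lines, more of them downward. Of 20348 genes tested with edgeR's quasi-likelihood test on all 24 untreated libraries, 12709 (62.5%) passed an adjusted p of 0.05: 5705 (28.0%) were higher in ALL-SIL and 7004 (34.4%) lower. At least 2-fold apart were 7771 genes (38.2%), 3203 (15.7%) higher in ALL-SIL and 4568 (22.4%) lower. Without HPB-ALL library 4 the at least 2-fold counts were 3461 higher (16.7% of 20786) and 4585 lower (22.1%). The counts of listed genes below use the 2-fold rule and are to be read against 15.7% higher and 22.4% lower. The median log2 fold change over all tested genes was -0.08, and the medians of lists are given beside it.

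Of the 21 listed T-ALL transcription factors, TLX1 and TLX3 included, 16 were tested, and TAL1, NKX2-1, NKX2-5 and HOXA9 stood at or near 0 in both lines. Called at least 2-fold apart were 2 higher and 5 lower. TLX1 and TLX3 are counted there though they chose the pair, so these counts are not set against the shares over all tested genes. The other called factors averaged under 1 CPM in both lines. LMO2 averaged 0.0205 CPM in ALL-SIL and 0.448 CPM in HPB-ALL, and LMO1 had 0 counts in ALL-SIL against 0.386 CPM in HPB-ALL, both called lower at very low levels. MYB, on which many T-ALL cells depend, averaged 357 ± 79.5 CPM in ALL-SIL and 337 ± 49.5 CPM in HPB-ALL (SD, n = 4 each) and gave no call (edgeR adjusted p = 0.682). LYL1, a helix-loop-helix factor, was higher in ALL-SIL at 23.3 ± 3.46 CPM, against 12.9 ± 3.01 CPM in HPB-ALL (log2 fold change 0.85, SE 0.16, edgeR adjusted p = 4.87e-05).

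Of 19 genes described elsewhere as targets or partners of TLX1 or TLX3, 1 was called higher and 7 lower (median log2 fold change -0.67, all tested genes -0.08). The corepressor TLE1 had 1.15, 1.41, 1.19 and 2.46 CPM in ALL-SIL, against 53.7, 62.4, 56.5 and 55.6 CPM in HPB-ALL (log2 fold change -5.21, SE 0.20, edgeR adjusted p = 4.22e-17). PBX3, a homeodomain cofactor, averaged 13 ± 2.78 CPM in ALL-SIL and 82.4 ± 9.4 CPM in HPB-ALL (SD, n = 4 each), a log2 fold change of -2.67. The groups do not overlap for either gene. NFIC, a nuclear factor I protein, was the member that was higher in ALL-SIL (52.2 ± 7.56 CPM, against 17.5 ± 2.26 CPM in HPB-ALL). RUNX1 was lower by less than 2-fold (log2 fold change -0.86), while ETS1 (-0.04, edgeR adjusted p = 0.83) and BCL11B (0.12, edgeR adjusted p = 0.608) gave no call. ALDH1A1, a known TLX1 target of mouse cells, had 0 counts in ALL-SIL and 4 counts in HPB-ALL.

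The ends of the 9q34 stretch that the fusion joins were raised in ALL-SIL, and so were several genes that STAT5 is known to drive. ABL1, the tyrosine kinase, had 299, 312, 368 and 334 CPM in ALL-SIL, against 122, 146, 137 and 124 CPM in HPB-ALL (log2 fold change 1.31, SE 0.09, edgeR adjusted p = 6.21e-12). NUP214, a nuclear pore protein, had 145, 145, 224 and 153 CPM in ALL-SIL, against 77.5, 82.4, 78.5 and 76.8 CPM in HPB-ALL (log2 fold change 1.08, SE 0.12, edgeR adjusted p = 1.77e-08). The ALL-SIL libraries lay above the HPB-ALL libraries for both, and DND-41 averaged 88.6 CPM of ABL1 and 48.1 CPM of NUP214. All 5 tested genes of the stretch were called higher, but FIBCD1, LAMC3 and AIF1L averaged under 1 CPM in HPB-ALL, and the count of 5 dropped to 3 without HPB-ALL library 4. The call of AIF1L was lost without any 1 of the 4 HPB-ALL libraries (adjusted p = 0.051 to 0.0543), without ALL-SIL library 2 (0.097) and under DESeq2 (0.0722). FIBCD1 had 3.85, 3.32, 2.9 and 52 CPM in ALL-SIL, against 0, 0, 0 and 0.256 CPM in HPB-ALL, so library 4 held most of its signal in both lines, and AIF1L had 4 counts in ALL-SIL and 0 in HPB-ALL. Among 9 tested genes on its flanks, 0 were called higher by 2-fold or more and 1 lower, RAPGEF1, a guanine nucleotide exchange factor, at 93.8 ± 12.5 CPM in ALL-SIL, against 318 ± 24.3 CPM in HPB-ALL. Without the 2-fold rule, 3 of the 9 were called higher and 2 lower. Totals per gene do not show which transcripts are fused.

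Of 22 listed STAT5 and ABL kinase response genes, all tested, 10 were called higher in ALL-SIL and 2 lower, with a median log2 fold change of 1.01. CISH, an inhibitor that STAT5 induces, had 729.6, 709, 625 and 829 CPM in ALL-SIL, against 1.68, 2.58, 1.5 and 2.52 CPM in HPB-ALL (log2 fold change 8.45, SE 0.24, edgeR adjusted p = 8.7e-20). SOCS2, a feedback inhibitor of the same kind, had 223, 239, 214 and 261 CPM in ALL-SIL, against 0.196, 0.206, 0.256 and 0.42 CPM in HPB-ALL (log2 fold change 9.75, SE 0.35, edgeR adjusted p = 1.09e-17). The phosphatase DUSP6, which restrains ERK, had 539, 617, 577 and 473 CPM in ALL-SIL, against 2.42, 3.61, 3.04 and 1.88 CPM in HPB-ALL (log2 fold change 7.65, SE 0.22, edgeR adjusted p = 1.1e-19). The libraries of the lines are far apart for each of these genes. The kinase PIM1, a survival gene, averaged 415 ± 22.5 CPM in ALL-SIL and 56.2 ± 5.63 CPM in HPB-ALL (SD, n = 4 each; log2 fold change 2.88, SE 0.18, edgeR adjusted p = 7.04e-13). SOCS1, SOCS3 and the cytokine OSM followed, with log2 fold changes of 3.08, 8.94 and 5.37. STAT5A itself had 91.5, 76, 121 and 76.1 CPM in ALL-SIL, against 7.72, 9.35, 7.51 and 7.41 CPM in HPB-ALL (log2 fold change 3.51, SE 0.16, edgeR adjusted p = 5.9e-16), whereas its neighbour STAT5B was higher by less than 2-fold (log2 fold change 0.34), a call lost in the fit of the 8 libraries alone (adjusted p = 0.0582). BCL2L1, which codes for the survival protein BCL-XL, averaged 195 ± 5.21 CPM in ALL-SIL and 83 ± 10.4 CPM in HPB-ALL. SOCS2, SOCS1 and CISH overlap SOCS2-AS1, RMI2 and MAPKAPK3 on the other strand, and no source used here gives the strand used in counting. The list did not move as a whole. SPRY2, an inhibitor of receptor kinase signals, had 0 counts in ALL-SIL, against 13, 18.7, 12.6 and 10.4 CPM in HPB-ALL, at least 233-fold lower, and EGR1, an early response factor, averaged 0.224 ± 0.0659 CPM in ALL-SIL and 2.26 ± 0.441 CPM in HPB-ALL. MYC had 243, 304, 555 and 136 CPM in ALL-SIL, against 359.8, 407, 402 and 107 CPM in HPB-ALL, and the ranges overlap (edgeR adjusted p = 0.939).

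**Figure D2:**
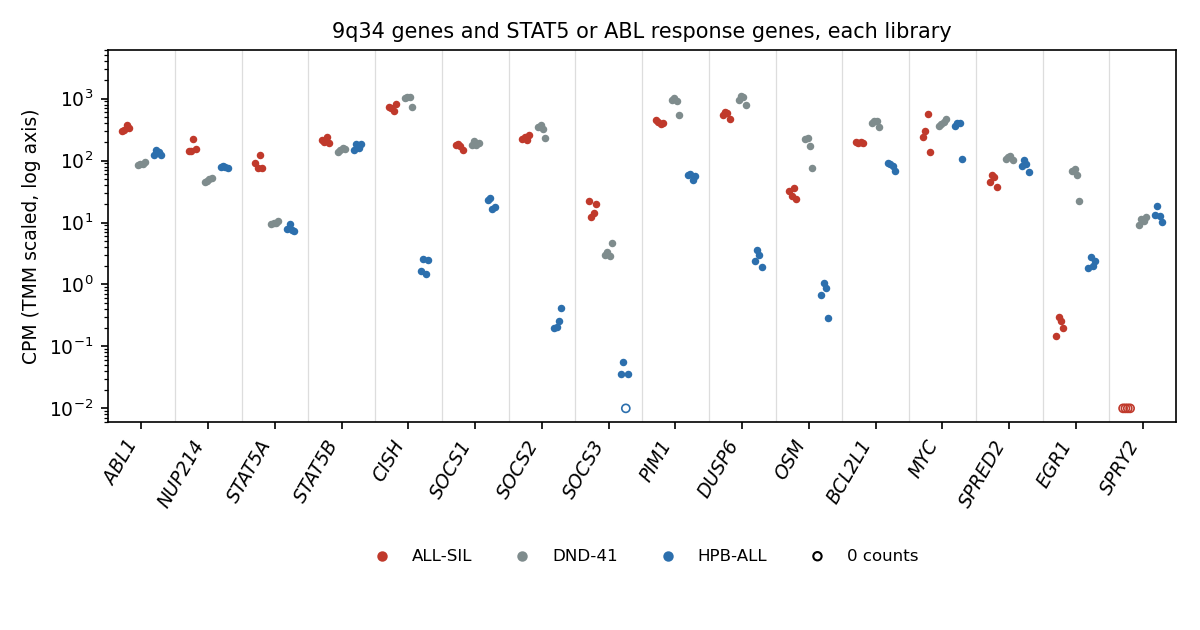
CPM (TMM scaled, log axis) of genes at 9q34 and of STAT5 or ABL response genes in each library of ALL-SIL, DND-41 and HPB-ALL; open circles at the bottom are libraries with 0 counts. CISH, SOCS2, DUSP6, PIM1 and SOCS1 in DND-41 lie with or above ALL-SIL, and ABL1, NUP214 and STAT5A in DND-41 lie near HPB-ALL.

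DND-41 did not side with HPB-ALL for CISH, SOCS2, DUSP6 and PIM1, but it lay near HPB-ALL for STAT5A. It averaged 965 ± 156 CPM of CISH, 317 ± 59.1 CPM of SOCS2, 975 ± 139 CPM of DUSP6 and 855 ± 213 CPM of PIM1 (SD, n = 4), and 10.0 ± 0.488 CPM of STAT5A, while it carries TLX3 like HPB-ALL. The cytokine receptor list, 36 tested genes, had 6 called higher and 8 lower. IL7R, the interleukin 7 receptor of thymocytes, had 0.37, 1.29, 0.475 and 0.392 CPM in ALL-SIL, against 280.0, 355, 368 and 229 CPM in HPB-ALL (log2 fold change -8.93, SE 0.40, edgeR adjusted p = 6.83e-16), and 639 CPM in DND-41; without ALL-SIL library 2 the log2 fold change was -9.54. The shared receptor chain IL2RG averaged 89.8 ± 5.85 CPM in ALL-SIL and 77.5 ± 12.1 CPM in HPB-ALL (edgeR adjusted p = 0.569), and IL2RB and JAK3 were higher in ALL-SIL with log2 fold changes of 2.04 and 1.0. IL6ST, the signalling chain for interleukin 6, had 0 counts in ALL-SIL and 25.4 CPM in HPB-ALL, while IL6R averaged 16.2 CPM in ALL-SIL and 1.23 CPM in HPB-ALL. The tumour necrosis factor receptor TNFRSF1B averaged 90.8 CPM in ALL-SIL and had 1 count in HPB-ALL, and TNFRSF4, which codes for OX40, averaged 1.45 CPM in ALL-SIL and 164 CPM in HPB-ALL.

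The CISH promoter is shown because CISH stood highest in ALL-SIL among the inhibitors named above; the window runs from 250 bases before to 50 after the start in RefSeq (GRCh38.p14, chr3:50611725-50612024, minus strand), and capitals mark matches to TTCNNNGAA, the palindrome that STAT proteins bind, where N is any base.
CISH: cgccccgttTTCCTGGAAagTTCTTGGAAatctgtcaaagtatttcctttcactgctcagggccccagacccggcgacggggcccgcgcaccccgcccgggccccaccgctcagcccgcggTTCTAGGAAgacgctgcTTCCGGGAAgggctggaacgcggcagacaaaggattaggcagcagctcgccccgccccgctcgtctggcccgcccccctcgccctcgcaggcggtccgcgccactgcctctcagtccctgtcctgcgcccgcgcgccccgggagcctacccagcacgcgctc
The window holds 4 such matches, none overlapping another. Promoters of 16 of the 22 listed genes could be matched, and 2 of them hold the motif, those of CISH and EGR1 (12.5%), against 7.88% of all 27305 promoters of the same length; the palindrome reads alike on both strands. EGR1 was lower in ALL-SIL.

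The abundant T-cell receptor transcripts differed in part between the lines. TRAC, the alpha constant region, had 0.037, 0.0398, 0.0548 and 0.283 CPM in ALL-SIL, against 1241, 1168, 1160.2 and 866 CPM in HPB-ALL (log2 fold change -13.43, SE 0.38, edgeR adjusted p = 9.45e-20; log2 fold change -14.56 without ALL-SIL library 4). TRBC2, a beta constant region, had 130.4, 159, 142 and 114 CPM in ALL-SIL, against 3523, 2406, 2383 and 2047 CPM in HPB-ALL (log2 fold change -4.25, SE 0.21, edgeR adjusted p = 3.39e-15). TRDC, the delta constant region, had 426, 499.7, 539 and 297 CPM in ALL-SIL, against 1 count in HPB-ALL, a ratio of 95742 (exact 95% counting interval 17183 to 3781640.0). Alpha and beta transcripts were thus the abundant ones in HPB-ALL, and delta transcripts in ALL-SIL. TRDC lies opposite TRD-AS1, and without the strand reads of the pair cannot be told apart. TRBC1 and TRBC2 are near copies, so reads may be split between them; TRBC1 averaged 7.76 CPM in ALL-SIL, 1193 CPM in DND-41 and 0.0887 CPM in HPB-ALL. TRGC2, a gamma constant region, gave no call (404 ± 37.6 CPM in ALL-SIL and 295 ± 117 CPM in HPB-ALL, SD, n = 4 each), but it was called higher without HPB-ALL library 1 (adjusted p = 0.0198). DND-41 had 0.0273 CPM of TRAC and 158 CPM of TRDC.

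The variable segments differed as well. TRGV7 made up 66.0% to 70.4% of the gamma variable counts in ALL-SIL, and TRGV3 made up 99.3% to 99.5% in HPB-ALL. TRBV18 held 39.5% to 46.6% and TRBV7-9 held 34.6% to 37.1% of the beta variable counts in ALL-SIL, whereas TRBV5-5 held 74.8% to 77.2% in HPB-ALL. TRBV18 held 88.3% to 93.3% in DND-41, and TRBV7-2 was present in both lines, at 8.01 CPM in ALL-SIL and 36.9 CPM in HPB-ALL. At the alpha locus TRAV19 held 53.0% to 60.9% of the variable counts in HPB-ALL, where the locus summed to 576 CPM, against 11.4 CPM in ALL-SIL. TRDV2 led the delta segments of ALL-SIL with 7.07 CPM, and HPB-ALL had 0 counts over the 3 delta variable segments. These segments are similar in sequence and their counts can be split between copies.

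The signalling parts of the receptor were nearer. CD3G was lower in ALL-SIL (186 ± 15.3 CPM, against 342 ± 51.7 CPM in HPB-ALL; log2 fold change -0.88, SE 0.13, edgeR adjusted p = 3.81e-06). CD3E (-0.41, edgeR adjusted p = 0.00745) and CD3D (-0.63, edgeR adjusted p = 0.0129) were lower by less than 2-fold, calls that did not hold in the fit of the 8 libraries alone (adjusted p = 0.058 for CD3E and 0.0558 for CD3D); that of CD3D was also lost without HPB-ALL library 1 (adjusted p = 0.107). CD247, LCK and ZAP70 gave no call, though CD247 was called higher without ALL-SIL library 4 (adjusted p = 0.0265). PTCRA, the pre-TCR alpha chain, had 1.43, 1.21, 0.529 and 0.871 CPM in ALL-SIL, against 54.6, 58.8, 55.6 and 75 CPM in HPB-ALL (log2 fold change -5.91, SE 0.35, edgeR adjusted p = 2.03e-13). Among 36 TCR signalling genes 12 were called higher and 6 lower. The adaptor SLA2 averaged 166 ± 14.5 CPM in ALL-SIL and 3.96 ± 1.54 CPM in HPB-ALL, and THEMIS, needed for thymocyte selection, 92.9 ± 7.58 CPM in ALL-SIL and 16.5 ± 4.4 CPM in HPB-ALL. CD28, the main costimulatory receptor, went the other way, with 17, 17, 8.67 and 10.0 CPM in ALL-SIL, against 342, 426, 368 and 607 CPM in HPB-ALL (log2 fold change -5.05, SE 0.33, edgeR adjusted p = 1.68e-12). PAG1, which anchors the kinase CSK, had 0.0556, 0, 0.219 and 0 CPM in ALL-SIL, against 10.1, 13.6, 9.45 and 93.6 CPM in HPB-ALL (log2 fold change -8.72, SE 0.84, edgeR adjusted p = 2.17e-09). The highest HPB-ALL value is that of library 4, and the log2 fold change was -7.20 without it and -10.48 without ALL-SIL library 3.

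Most thymocyte surface antigens, the CD1 molecules among them, were lower in ALL-SIL. Of 24 tested thymocyte surface antigens, 4 were called higher and 16 lower (median log2 fold change -1.73, all tested genes -0.08). The CD1 molecules present lipid antigens and mark cortical thymocytes. CD1E had 0.815, 1.37, 5.79 and 1.09 CPM in ALL-SIL, against 1118, 1205, 1221 and 992 CPM in HPB-ALL (log2 fold change -8.95, SE 0.50, edgeR adjusted p = 7.47e-13). CD1A had 3.85, 9.68, 10.5 and 4.72 CPM in ALL-SIL, against 404, 406, 398 and 191 CPM in HPB-ALL (log2 fold change -5.6, SE 0.40, edgeR adjusted p = 7.15e-12). CD1B, CD1C and CD1D were lower too, with log2 fold changes of -6.18, -7.96 and -3.86. HPB-ALL library 4 had the lowest HPB-ALL value for each of the 5. Without ALL-SIL library 3 the log2 fold change of CD1E was -10.02. DND-41 averaged 651 CPM of CD1B, and 37.3 CPM of CD1A.

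The coreceptors followed in the same direction. CD8B had 3.26, 3.96, 2.61 and 2.33 CPM in ALL-SIL, against 417, 387, 402 and 339.6 CPM in HPB-ALL (log2 fold change -6.99, SE 0.26, edgeR adjusted p = 1.67e-17). CD8A averaged 82.4 ± 12.9 CPM in ALL-SIL and 311 ± 21.7 CPM in HPB-ALL (log2 fold change -1.92), and CD4 averaged 162 ± 11.9 CPM in ALL-SIL and 473 ± 74 CPM in HPB-ALL (log2 fold change -1.55; SD, n = 4 each). CD4 and CD8 transcripts were present together in both lines, and in DND-41 CD4 stood at 4.15 CPM and CD8A at 1.87 CPM. CD2, an adhesion receptor, was lower in ALL-SIL with a log2 fold change of -6.55 (-7.32 without ALL-SIL library 3), and CD5 with one of -0.94. CD7, which T cells gain early, was higher by less than 2-fold (787 ± 98 CPM in ALL-SIL and 469 ± 104 CPM in HPB-ALL). DPP4, the surface peptidase also called CD26, had 206, 174, 157 and 237 CPM in ALL-SIL, against 0.0891, 0, 0.0394 and 0.0548 CPM in HPB-ALL (log2 fold change 11.96, SE 0.55, edgeR adjusted p = 2.33e-14), and CD96 was higher with a log2 fold change of 4.36 (4.97 without HPB-ALL library 4). CD34, the progenitor antigen, had 1 count in ALL-SIL and 3 in HPB-ALL.

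**Figure D3:**
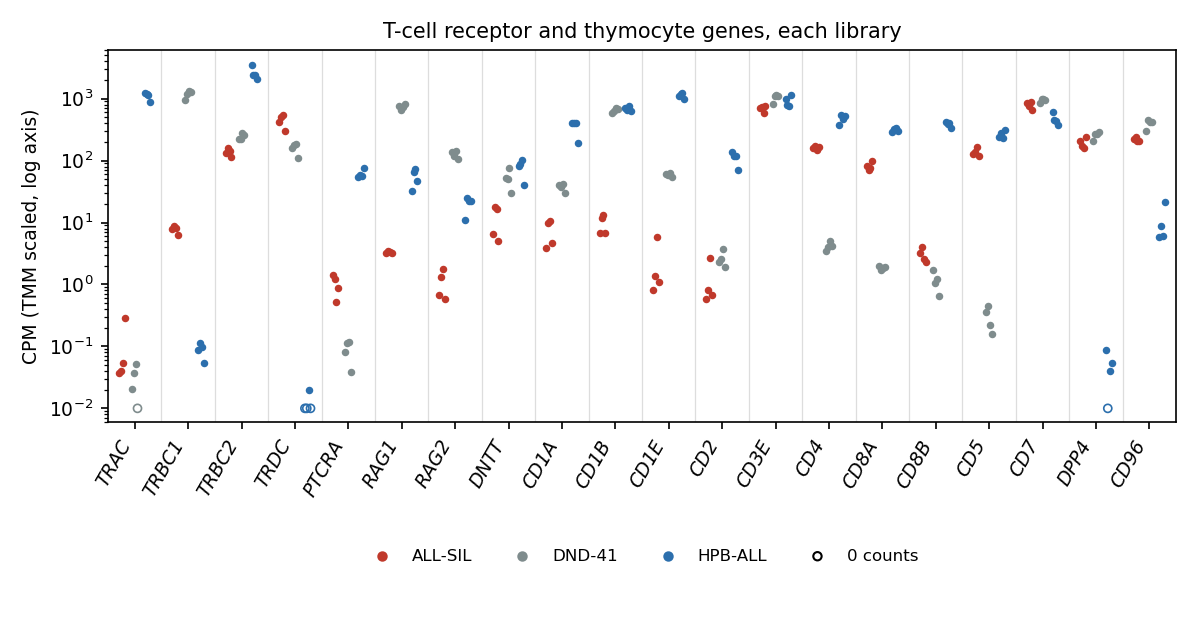
CPM (TMM scaled, log axis) of T-cell receptor, recombination and surface antigen genes in each library of ALL-SIL, DND-41 and HPB-ALL; open circles at the bottom are libraries with 0 counts. HPB-ALL lies highest for TRAC, PTCRA, CD1A, CD2, CD4 and CD8B, and ALL-SIL for TRDC.

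RAG1, RAG2 and DNTT, which act in recombination of TCR genes, were lower in ALL-SIL. RAG1, which cuts TCR genes, had 3.17, 3.42, 3.36 and 3.27 CPM in ALL-SIL, against 32.4, 65.5, 73.7 and 46.5 CPM in HPB-ALL (log2 fold change -4.04, SE 0.25, edgeR adjusted p = 4.59e-13). RAG2 averaged 1.1 ± 0.571 CPM in ALL-SIL and 20.0 ± 6.01 CPM in HPB-ALL (log2 fold change -4.17), and DNTT, the polymerase that adds bases at the joins, 11.4 ± 6.68 CPM in ALL-SIL and 78.3 ± 27.1 CPM in HPB-ALL (log2 fold change -2.77). RAG1 and RAG2 overlap on opposite strands, so some of their reads may be shared. DND-41 stood above both lines for RAG1, at 750.3 ± 69.4 CPM (SD, n = 4). The polymerase POLL was higher in ALL-SIL (29.4, 27.8, 26.2 and 21.2 CPM, against 0.392, 0.486, 0.335 and 1.31 CPM in HPB-ALL; log2 fold change 5.36, and 6.01 without HPB-ALL library 4), and of the 14 listed genes 3 were called higher and 3 lower.

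Of 46 tested T-lineage transcription factors, 12 were called higher and 15 lower. TCF7, which opens the T-cell programme, had 718, 797, 885 and 479 CPM in ALL-SIL, against 1961, 2069.6, 1911 and 1833 CPM in HPB-ALL (log2 fold change -1.43, SE 0.23, edgeR adjusted p = 8.57e-06). Its relative LEF1 was lower as well (log2 fold change -1.24), as was RUNX3, a factor of CD8 cells (log2 fold change -1.42). GATA3, needed for T-cell commitment, was higher, with 182, 213, 279 and 149 CPM in ALL-SIL, against 96.2, 96.6, 80.6 and 86.8 CPM in HPB-ALL (log2 fold change 1.19, SE 0.19, edgeR adjusted p = 9.11e-06). TOX2, a factor of the TOX family, averaged 0.0818 CPM in ALL-SIL and 65.1 CPM in HPB-ALL. TCF4, an E protein, had 0 counts in ALL-SIL and 10.1, 15.7, 15.5 and 14 CPM in HPB-ALL, at least 235-fold lower. ID3, an inhibitor of E proteins, was higher in ALL-SIL (57.3 ± 23 CPM, against 9.17 ± 3.49 CPM in HPB-ALL; log2 fold change 2.65), while ID2 was lower (-1.5). MAF and ZBTB7B, the factor of CD4 cells, were higher, with log2 fold changes of 2.76 and 4.64 (3.55 for ZBTB7B without ALL-SIL library 4).

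NOTCH1 itself did not separate the lines, and its known targets split. NOTCH1 had 648, 697, 978 and 455 CPM in ALL-SIL, against 518, 758, 682 and 590.2 CPM in HPB-ALL (edgeR adjusted p = 0.541). Of 40 tested NOTCH receptors, ligands and targets, 10 were called higher and 12 lower. HES1, the classical target, had 44.1, 59.6, 49.4 and 47 CPM in ALL-SIL, against 13.8, 11.3, 10.2 and 11 CPM in HPB-ALL (log2 fold change 2.11, SE 0.19, edgeR adjusted p = 5.58e-10). HES4, of the same family, had 0 counts in ALL-SIL, against 187, 111, 127 and 223 CPM in HPB-ALL, at least 2754-fold lower (edgeR adjusted p = 2.39e-12). The targets thus differ in direction: DTX1 (log2 fold change -0.78) and the receptor NOTCH3 (-0.86) were lower by less than 2-fold, SHQ1 was higher (3.22), and IGF1R was higher by less than 2-fold (0.44). CR2, a complement receptor listed as a target and known from B cells, had 0 counts in ALL-SIL, against 146, 297, 294 and 369 CPM in HPB-ALL, at least 4701-fold lower (edgeR adjusted p = 1.22e-12). MFNG, which adds sugars to NOTCH, had 98.7, 87.9, 121 and 61.8 CPM in ALL-SIL, against 1 count in HPB-ALL, a ratio of 20174 (exact 95% counting interval 3620.4 to 796877).

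Many adhesion and homing receptors were higher in ALL-SIL. Of 40 tested, 19 were called higher and 8 lower, with a median log2 fold change of 1.03. ITGAL, the alpha chain of the leukocyte integrin LFA-1, picked after its values were seen, had 1573, 1517, 1759.7 and 1616 CPM in ALL-SIL, against 26, 33.9, 29 and 43.1 CPM in HPB-ALL (log2 fold change 5.61, SE 0.26, edgeR adjusted p = 1.18e-15), and 12.4 CPM in DND-41. The chemokine receptor CCR8 had 87.3, 117, 109 and 49 CPM in ALL-SIL, against 2 counts in HPB-ALL, a ratio of 9858 (exact 95% counting interval 2729 to 81410.2). The adhesion molecule PECAM1 was higher with a log2 fold change of 9.6, and the skin-homing receptor CCR4 averaged 141 ± 50.6 CPM in ALL-SIL and 42.9 ± 12.1 CPM in HPB-ALL. CXCR4, which holds T-ALL cells in the marrow, was lower, with 175, 243, 228 and 204 CPM in ALL-SIL, against 507, 481, 512 and 496 CPM in HPB-ALL (log2 fold change -1.23, SE 0.27, edgeR adjusted p = 0.000331). ITGA4, the alpha 4 integrin, averaged 202 ± 78.2 CPM in ALL-SIL and 494 ± 88.7 CPM in HPB-ALL, and ITGAE 22 ± 2.07 CPM in ALL-SIL and 123 ± 17.6 CPM in HPB-ALL. CX3CR1 was at 0.343 CPM in ALL-SIL and 44.6 CPM in HPB-ALL. CCR7 was lower (log2 fold change -1.32, edgeR adjusted p = 0.0233), a call lost without any 1 of ALL-SIL libraries 1, 2 or 4 (adjusted p = 0.061 to 0.0717), and its log2 fold change was -1.93 without library 3.

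**Figure D4:**
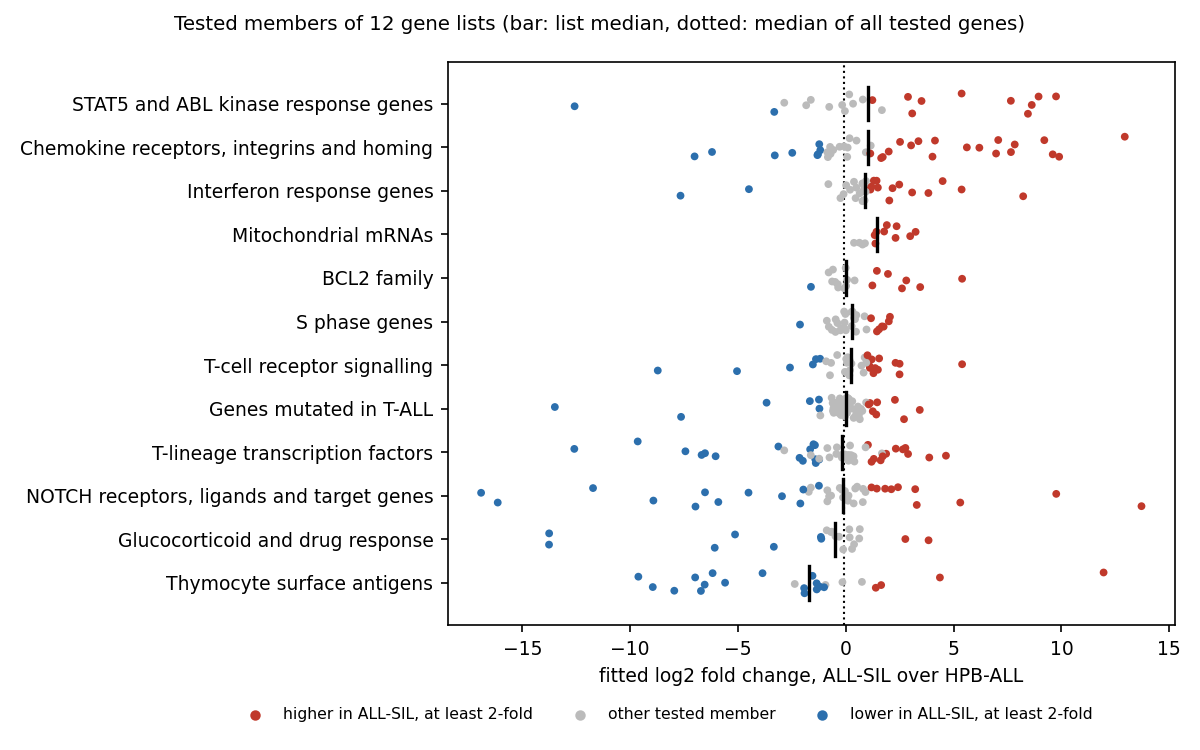
Fitted log2 fold change, ALL-SIL over HPB-ALL, of the tested members of 12 gene lists (1 point a gene); bars are list medians and the dotted line is the median of all tested genes, -0.08. Genes at 0 counts in 1 line have fitted values that depend on the prior count. The STAT5 and ABL list has a median of 1.01 and the thymocyte antigens one of -1.73.

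Of 56 genes mutated in T-ALL, 8 were called higher and 6 lower. At 9p21, CDKN2A, CDKN2B-AS1 and MTAP were low in ALL-SIL. CDKN2A, the cell cycle inhibitor most often deleted in T-ALL, had 2 counts in ALL-SIL, both in library 4, against 200.2, 116, 131 and 107 CPM in HPB-ALL, a ratio of HPB-ALL to ALL-SIL of 14295 (exact 95% counting interval 3957 to 118044). CDKN2B-AS1, which overlaps it on the other strand, had 0 counts in ALL-SIL and 15.9 CPM in HPB-ALL, and CDKN2B had 0 counts in both lines. MTAP, the metabolic gene on the far side, had 5.89, 7.12, 8.65 and 4.4 CPM in ALL-SIL, against 84.4, 97.1, 104 and 47.7 CPM in HPB-ALL (log2 fold change -3.68, SE 0.20, edgeR adjusted p = 2.99e-14). KLHL9, on the same arm, averaged 106 ± 10.0 CPM in ALL-SIL and 91 ± 15.6 CPM in HPB-ALL and gave no call (edgeR adjusted p = 0.172). CDKN2B-AS1 and KLHL9 were picked after their values were seen, and whether DNA is lost there cannot be read from these counts. PIK3CD, the leukocyte PI3K catalytic chain, was higher in ALL-SIL (log2 fold change 3.43), as was PHF6 (1.12). RB1 was lower (58 ± 11.1 CPM in ALL-SIL and 184 ± 23.1 CPM in HPB-ALL; log2 fold change -1.67), and CDKN1A averaged 0.0994 CPM in ALL-SIL and 20.0 CPM in HPB-ALL.

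The BCL2 family, which decides between survival and apoptosis, had 7 of 19 tested genes called higher and 1 lower. BCL2, the survival protein that venetoclax binds, had 256, 254, 213 and 257 CPM in ALL-SIL, against 54.1, 74.9, 64.8 and 58.9 CPM in HPB-ALL (log2 fold change 1.95, SE 0.14, edgeR adjusted p = 4.02e-12). BCL2L11, which codes for the killer protein BIM, had 118, 105, 116 and 98.4 CPM in ALL-SIL, against 1.41, 3.48, 2.5 and 2.99 CPM in HPB-ALL (log2 fold change 5.39, SE 0.25, edgeR adjusted p = 1.54e-15). Survival and killer members thus stood higher side by side: BIK and BMF, both killers, had log2 fold changes of 2.6 and 1.44. PMAIP1, which codes for NOXA, was the member that was lower (-1.62), and MCL1 gave no call (-0.07, edgeR adjusted p = 0.646). Of 21 tested drug response genes, 2 were called higher and 7 lower. GGH, which removes glutamates from methotrexate, and the exporter ABCC4 had 0 counts in ALL-SIL, against 31.1 and 31 CPM in HPB-ALL. SAMHD1, which breaks down cytarabine triphosphate, averaged 22.6 ± 3.93 CPM in ALL-SIL and 1.58 ± 0.115 CPM in HPB-ALL (log2 fold change 3.84). The glucocorticoid receptor NR3C1 gave no call (0.16), and its target TSC22D3 had 0.685, 0.537, 0.0913 and 2.31 CPM in ALL-SIL, against 13.8, 17.6, 15.9 and 77.1 CPM in HPB-ALL (log2 fold change -5.14, -6.15 without ALL-SIL library 4 and -4.16 without HPB-ALL library 4).

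Many interferon response genes were higher in ALL-SIL. Of 32 tested interferon genes, 13 were called higher and 2 lower (median log2 fold change 0.87), and without HPB-ALL library 4 the counts were 15 and 4. IFITM2, a membrane protein that blocks viral entry, had 230.1, 232, 358 and 172 CPM in ALL-SIL, against 0.82, 1.12, 0.611 and 0.749 CPM in HPB-ALL (log2 fold change 8.23, SE 0.30, edgeR adjusted p = 9.96e-18), with IFITM1 and IFITM3 higher as well (2.17 and 3.83); the 3 are near copies and may share reads. RSAD2 and GBP4 had log2 fold changes of 3.08 and 5.37 (4.54 for GBP4 without ALL-SIL library 3), while USP18, which dampens interferon signalling, was lower (0.472 ± 0.161 CPM in ALL-SIL and 10.6 ± 1.34 CPM in HPB-ALL). ISG15 was lower by less than 2-fold (-0.81), a call lost without HPB-ALL library 1 (adjusted p = 0.0877). Among 30 S phase genes 7 were called higher and 1 lower, led by the helicase subunits MCM4 (458 ± 142 CPM in ALL-SIL and 111 ± 17 CPM in HPB-ALL; 2.05) and MCM2 (1.99). CCNE1, which starts S phase, was the member that was lower (-2.13). Of 30 G2 and M phase genes 2 were called higher and 0 lower, and the difference between the lists was not tested.

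Mitochondrially encoded messenger RNAs were higher in ALL-SIL, 9 of 13 at least 2-fold (median log2 fold change 1.42) and 0 lower. All genes of the mitochondrial genome together took 6.56% to 8.89% of all counts in ALL-SIL and 3.78% to 5.61% in HPB-ALL. MT-ND1, a subunit of complex I, had 3206, 5848, 4296 and 5082 CPM in ALL-SIL, against 1428, 829, 791 and 678 CPM in HPB-ALL (log2 fold change 2.31, SE 0.25, edgeR adjusted p = 1.76e-08), while MT-CO1, a subunit of complex IV and the most abundant of them, gave no call (0.38, edgeR adjusted p = 0.122; 0.0478 without HPB-ALL library 1).

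Of 20 tested MHC class I and peptide loading genes 4 were called higher and 2 lower, and of 9 tested class II genes 0 higher and 4 lower, all of these 4 at or under 1.45 CPM on average in both lines. HLA-B was lower by less than 2-fold (-0.99), HLA-E was higher (515 ± 101 CPM in ALL-SIL and 178 ± 44.2 CPM in HPB-ALL; 1.53), and HLA-F had 0 counts in ALL-SIL and 27.2 CPM in HPB-ALL; these genes are polymorphic and similar, so alleles of a line can take reads from each other. NLRC5, the activator of class I genes, was higher (1.57). CD74, the class II chaperone, averaged 0.0421 CPM in ALL-SIL and 1.09 CPM in HPB-ALL, and the class II activator CIITA was at or under 0.0724 CPM on average in both. Of 27 tested HOX genes 6 were called higher and 1 lower, with HOXA7 (6.25 ± 0.57 CPM in ALL-SIL and 0.714 ± 0.267 CPM in HPB-ALL) among the higher ones, all of them under 10 CPM on average. The cholesterol genes had 5 of 26 called higher and 3 lower. FDFT1, which makes squalene, was higher (1.34), and CYP51A1, the lanosterol demethylase, had 1 count in ALL-SIL and 4.0 CPM in HPB-ALL.

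Of 28 tested splicing regulators, QKI among them, 4 were called higher and 4 lower, shares no greater than the 15.7% and 22.4% over all tested genes; leaving out 1 library at a time gave 5 to 7 higher, with 7 without ALL-SIL library 4. KHDRBS1, which codes for SAM68, a relative of QKI in the STAR family, had 448, 448, 600.5 and 515 CPM in ALL-SIL, against 114, 127, 147 and 161 CPM in HPB-ALL (log2 fold change 1.88, SE 0.13, edgeR adjusted p = 7.77e-12). RBM38, a regulator of RNA stability, had 12.1, 11.1, 17.5 and 18.6 CPM in ALL-SIL, against 449, 414, 375 and 309 CPM in HPB-ALL (log2 fold change -4.7, SE 0.22, edgeR adjusted p = 1.22e-15). The libraries of the lines do not overlap for either gene. NOVA1, known from neurons, averaged 16.3 ± 1.54 CPM in ALL-SIL and had 4 counts in HPB-ALL, all in library 4; under DESeq2 it gave no call (adjusted p = 0.0542). ESRP1, an epithelial splicing factor, had 0.0185, 0, 0.0183 and 0.261 CPM in ALL-SIL, against 0.606, 0.636, 0.552 and 31.8 CPM in HPB-ALL, with library 4 highest in both lines; its call was lost without HPB-ALL library 4 (log2 fold change -3.07, adjusted p = 0.0563), and the log2 fold change was -9.16 without ALL-SIL library 4.

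Many genes were present in 1 line and silent in the other. On in ALL-SIL, with at least 1 CPM in all 4 libraries, and off in HPB-ALL, with at most 3 counts in each, were 204 of 11835 genes (1.72%), of which 97 had no count at all in HPB-ALL. On in HPB-ALL and off in ALL-SIL were 630 of 12462 genes (5.06%), of which 400 had no count in ALL-SIL. Of the 204 genes, 97 were on and 60 off in DND-41, and of the 630 genes, 213 were on and 304 off there.

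H19, an imprinted long noncoding RNA, had the highest level in ALL-SIL of the genes on there and off in HPB-ALL, with 1133, 991, 1424 and 819.7 CPM, against 0 counts in HPB-ALL, at least 19538-fold higher (edgeR adjusted p = 6.48e-13), and 78.9 CPM in DND-41. LSP1, a leukocyte actin-binding protein, averaged 239 ± 23.6 CPM in ALL-SIL, and ABCC8, the sulphonylurea receptor of potassium channels, 236 ± 18.2 CPM (SD, n = 4), both at 0 counts in HPB-ALL; DND-41 had 35.2 CPM of LSP1 and 67.5 CPM of ABCC8. PRDM16, a histone methyltransferase gene altered in some leukaemias, averaged 86.6 ± 11.7 CPM in ALL-SIL and had 0 counts in HPB-ALL and DND-41. PAXX, a DNA end-joining factor, averaged 79.2 ± 7.27 CPM in ALL-SIL and 42.9 CPM in DND-41 and had 0 counts in HPB-ALL. XBP1, the transcription factor of the unfolded protein response, had 339, 354, 244 and 285 CPM in ALL-SIL, against 3 counts in HPB-ALL, a ratio of 21856 (exact 95% counting interval 7479 to 105987), and 803 ± 19.5 CPM in DND-41.

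DOCK1, an activator of the GTPase RAC, had the highest level in HPB-ALL of the genes on there and off in ALL-SIL, apart from the segment TRBV5-5, with 0 counts in ALL-SIL, against 418, 486, 545 and 329.6 CPM in HPB-ALL, at least 7559-fold lower (edgeR adjusted p = 1.73e-15). PIM3, a kinase of the family of PIM1, had 0 counts in ALL-SIL, against 155, 167, 141 and 137 CPM in HPB-ALL, at least 2549.8-fold lower (edgeR adjusted p = 6.2e-22), and 62.3 CPM in DND-41. PIM1 and PIM3 thus differ in opposite directions. MME, which codes for CD10, had 4 counts in ALL-SIL, against 232, 329, 296 and 498 CPM in HPB-ALL, and averaged 346 ± 47.2 CPM in DND-41 (SD, n = 4). TRIO, DAPK1, a death-associated kinase, and RORB, an orphan nuclear receptor, averaged 224, 199 and 100.4 CPM in HPB-ALL, with 2, 2 and 0 counts in ALL-SIL. FAM111B, a protease of the cell nucleus, was at 0 counts in ALL-SIL and 119 CPM in HPB-ALL, and 82.2 CPM in DND-41.

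The promoters of XBP1 (GRCh38.p14, chr22:28800520-28800819, minus strand) and PIM3 (chr22:49960522-49960821, plus strand) are shown because each gene is abundant in 1 line and silent in the other; they are RefSeq windows as for CISH, with CG pairs in capitals.
XBP1: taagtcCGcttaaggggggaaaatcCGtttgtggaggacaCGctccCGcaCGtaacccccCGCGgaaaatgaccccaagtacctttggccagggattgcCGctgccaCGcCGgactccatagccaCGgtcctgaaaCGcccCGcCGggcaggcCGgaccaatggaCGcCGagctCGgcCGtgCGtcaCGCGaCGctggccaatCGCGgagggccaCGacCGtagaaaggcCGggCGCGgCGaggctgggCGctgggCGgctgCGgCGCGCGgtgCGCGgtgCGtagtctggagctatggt
PIM3: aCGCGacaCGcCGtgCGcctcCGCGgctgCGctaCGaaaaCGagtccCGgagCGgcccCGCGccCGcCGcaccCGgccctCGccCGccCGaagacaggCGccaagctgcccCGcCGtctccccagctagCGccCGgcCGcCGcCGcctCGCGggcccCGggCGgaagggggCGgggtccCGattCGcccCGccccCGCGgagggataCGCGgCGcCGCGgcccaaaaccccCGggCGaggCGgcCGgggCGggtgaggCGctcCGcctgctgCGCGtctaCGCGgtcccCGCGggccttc
The XBP1 window holds 40 CG pairs and the PIM3 window 56, where 48.8% of all 27305 promoters hold at least 15. Among the genes on in ALL-SIL and off in HPB-ALL, 119 promoters could be matched, and 65.5% of them hold at least 15 CG pairs, against 83.8% of 8943 promoters of genes on in ALL-SIL. Among the genes on in HPB-ALL and off in ALL-SIL, 72.6% of 409 matched promoters do, against 83.7% of 9374 promoters of genes on in HPB-ALL. The differences between these shares were not tested.

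Expression differed by chromosome. Over 13013 positioned genes with an average of at least 1 CPM, 15.5% were called at least 2-fold higher in ALL-SIL and 17.1% lower. On chromosome 16 the shares were 37.1% higher and 13.7% lower of 614 genes (median log2 fold change 0.58), and on chromosome 3 they were 31.0% higher and 13.9% lower of 712 (median 0.48). Chromosome 8 followed with 20.6% higher and 16.8% lower of 441 (median 0.37). Chromosomes 18 (4.86% higher, 21.6% lower of 185 genes; median -0.41), 9 (median -0.36), 5 (median -0.35) and 2 (median -0.32) lay on the other side. Without HPB-ALL library 4 the medians were 0.59 on chromosome 16, 0.51 on chromosome 3 and -0.42 on chromosome 18, and with RLE size factors 0.57, 0.47 and -0.42. Copy number was not measured.

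**Figure D5:**
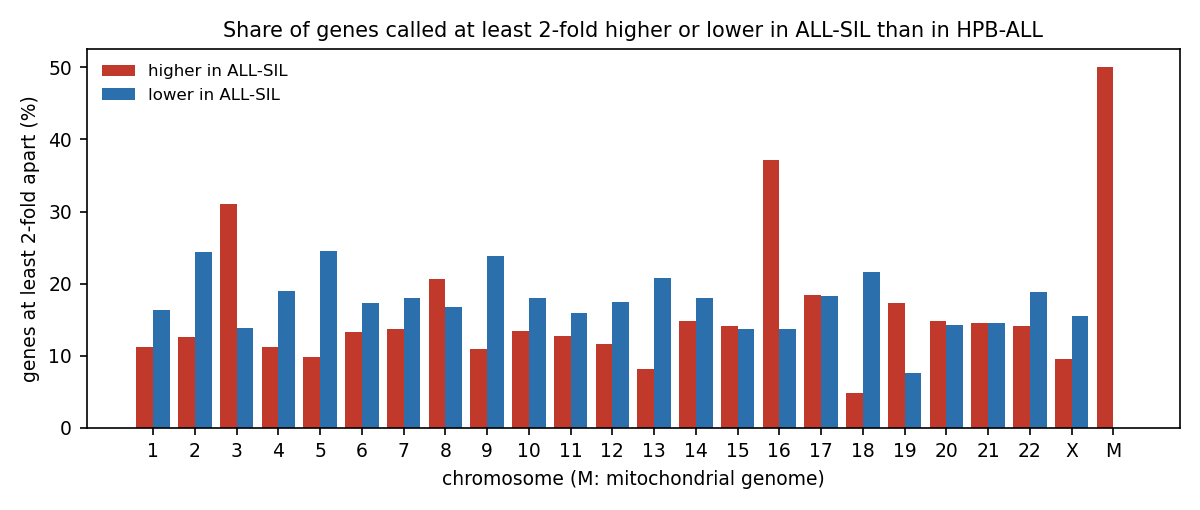
Percent of positioned genes with an average of at least 1 CPM called at least 2-fold higher (left bar) or lower (right bar) in ALL-SIL than in HPB-ALL, by chromosome; M is the mitochondrial genome (22 genes). Chromosomes 16 and 3 have the highest shares of higher genes among the nuclear chromosomes, 37.1% and 31.0%.

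In runs of 15 neighbouring genes, the highest medians lay at chr2:779840-6906301 (median log2 fold change 3.06), chr17:32486619-35537861 (2.61) and chr16:2883186-3142805 (2.29). The first holds PXDN, a peroxidase (187 ± 20.6 CPM in ALL-SIL and 0.0702 ± 0.0719 CPM in HPB-ALL), with the interferon genes CMPK2 and RSAD2. The second holds the Schlafen genes, among them SLFN11, which sensitizes cells to DNA-damaging drugs, with 192, 225, 231 and 186 CPM in ALL-SIL, against 28.9, 42.4, 35.4 and 30.2 CPM in HPB-ALL (log2 fold change 2.61, SE 0.14, edgeR adjusted p = 1.64e-14), and SLFN5 and SLFN13 (log2 fold changes 5.4 and 5.09). In the third, IL32, a cytokine, averaged 784 ± 223 CPM in ALL-SIL and 17.4 ± 2.08 CPM in HPB-ALL, and 14 of the 15 genes were called at least 2-fold higher. The lowest medians lay at chr14:21351472-22008181 (-9.90), with TCR alpha variable segments, at chr1:207088842-211435333 (-6.89), with the complement receptors CR2 and CR1, and at chr1:156934840-159867685 (-6.36), with the CD1 cluster. Each holds other genes too. In the chromosome 14 run 9 genes were called at least 2-fold lower and 2 higher. TRAV4 and TRAV5 there had 0 counts in ALL-SIL, and such genes have fitted values that depend on the prior count. Neighbouring genes of these families resemble each other and are not independent.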

How the data were processed

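RNA was sequenced from 4 untreated libraries of each line. The authors deposited raw read counts per gene (62754 genes, 62700 with a symbol); per the submitters' processing notes, Trimmomatic 0.39, STAR 2.7.11b and GRCh38 were used, and no source used here gives the counter, its strand setting or the library kit of these lines. Counts were tested with edgeR 4.0.16 (R 4.3.3): filterByExpr, TMM, 1 quasi-likelihood fit over the 24 untreated libraries of 6 lines (18 residual degrees of freedom), contrast ALL-SIL minus HPB-ALL, Benjamini-Hochberg adjustment over all 20348 genes, threshold 0.05. SEs are the log2 fold change over the root of F. A further rule asked for at least 2-fold. The procedure was also run on simulated counts drawn independently for each gene and library. These hold no library that stands apart, and the outcome is not given here. Alternatives were the 8 libraries alone, RLE factors, no filter, DESeq2 1.42.0, limma-voom 3.58.1, glmTreat against 1.5-fold, a replicate block, and each library left out. Library totals were 45.1 to 57.9 M reads.

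The members and the 31 gene lists (773 entries, all matched) were chosen with earlier results of these data known. Named were TLX1, TLX3, QKI, list members marked as key, up to 4 further list members per direction of at least 1 CPM, the 15 largest changes per direction of at least 10 CPM, the 8 most abundant on/off genes per direction, and genes of the 3 highest and lowest windows. Chosen after their values were seen were TRIB3, ITGAL, KLHL9, CDKN2B-AS1, HLA-B, IFITM1, ISG15, LAMC3, LMO1, LYL1, MT-CO1, MYB, SOCS1, STAT5B, TRGC2 and the markers of other cell types. Positions and exon lengths are from GENCODE 29, promoters from RefSeq (GRCh38.p14). Deviations of same-numbered libraries correlated at -0.21 and -0.12 for numbers 1 and 2, and at 0.48 and 0.50 for numbers 3 and 4. Differently numbered libraries correlated at -0.51 to 0.28. Same-numbered libraries were not paired in the main fit. Whether libraries 3 or 4 share a source between the lines was not tested. Some genes are not reported here.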

Additional observations from a re-analysis of the deposited data

Results flagged for a closer look

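A library was singled out where its distance from the nearest other library of its line, divided by the range of the line, exceeded Dixon's 95% value for 4 values. Among the genes named here 35 of 311 groups of 4 libraries met this. A rate of about 1 in 20 would hold by chance for independent groups not picked by their values. TRIB3 was picked after its values were seen, and genes of a library can shift together, so that rate is no test here. HPB-ALL library 4 accounted for 12 of the 35 groups and ALL-SIL library 3 for 11. No explanation was tested.

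In ALL-SIL library 3 the CPM stood apart for BCL2 (213), CCR7 (27.1), CD1E (5.79), CD2 (2.63), ETS1 (434), GBP4 (23.7), HLA-E (365), ID3 (91.7), MAF (16.7), NUP214 (224) and PHF6 (93.8). In ALL-SIL library 4 it did for ESRP1 (0.261), FIBCD1 (52.0), HLA-B (440.4), PBX3 (17.1), SLFN13 (137), TLX1 (346) and TRAC (0.283). IL2RG in ALL-SIL library 1 (81.0) and IL7R in ALL-SIL library 2 (1.29) were the remaining values of that line.

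In HPB-ALL library 4 the CPM stood apart for CD1A (190.5), ESRP1 (31.8), FIBCD1 (0.256), IFITM3 (13.2), MYC (107), PAG1 (93.6), POLL (1.31), RSAD2 (3.23), SHQ1 (10.7), TRIB3 (693), TSC22D3 (77.1) and USP18 (8.64). LMO1 (0.561) and STAT5A (9.35) did in HPB-ALL library 2, and NFIC (14.1) in HPB-ALL library 3.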

How the results depend on the processing

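The count of genes called higher in ALL-SIL was 3478 when tested against a fold of 1.5, against 5705, by construction of that test; under the other alternatives it ranged from 4690 to 5935. Leaving out 1 library at a time gave 5395 to 5935 genes higher and 6806 to 7062 lower, and 3137 to 3461 at least 2-fold higher and 4585 to 4758 lower. The replicate block in the 8 libraries gave 4980 higher and 5778 lower, with 2823 and 3783 at least 2-fold apart. The same libraries without it gave 4690, 5576, 2740 and 3781. The labels state no shared source for the numbers, and same-numbered libraries correlated positively for numbers 3 and 4 only. Without a filter on low counts 3682 genes were at least 2-fold higher and 6151 lower. Of 171 named genes with a value under all 15 alternatives, 157 kept their direction and their side of the threshold; 9 more had no value under some alternatives, and 7 of them kept both under the rest. None reversed. TRIB3 was called higher in ALL-SIL without HPB-ALL library 4 (log2 fold change 2.39, adjusted p = 0.00843). Depth limits genes at 0 counts to bounds.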
